A study of Gossypium hirsutum with 30 samples.

Results

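Heat shock proteins are molecular chaperones that bind unfolded proteins and help them fold, stay soluble or be handed on for refolding. The small HSPs hold denaturing proteins without using ATP, HSP70 and its DnaJ (J-domain) partners work in an ATP-driven cycle, HSP60 is a folding chamber, and HSP90 matures client proteins. Heat shock factors (HSFs) are the transcription factors that switch on many chaperone genes, and in Arabidopsis HSFA2 is itself strongly induced by heat and prolongs that response.

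The probe sets described here were the heat shock proteins and heat shock factors of cotton ovules, 60 of the 24029 probe sets on the Affymetrix cotton GeneChip after its controls were left out. They were the 58 probe sets that the study listed as heat shock proteins, 1 further probe set of the HSF family and the coactivator MBF1c. The study entered a transcript in these lists because it differed between the genotypes at 1 or more of the same stages. The differences below are therefore the values that chose the probe sets, and they are given as a description with no test. Transcripts are named by their closest Arabidopsis match in the study's annotation, so a function named below is that of the Arabidopsis protein, and the heat map of differences gives the identifier of each probe set. The 60 probe sets comprised 7 of heat shock factors, 1 of MBF1c, 2 of HSF-binding proteins, 8 of class I small HSPs, 9 of other small HSPs, 6 of HSP70, 7 of HSP90, 2 of HSP60 and GrpE and 16 of DnaJ proteins. Another 2 had an unclear place among chaperones, with matches to IRX14 and to a heavy metal domain protein related to copper chaperones.

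Whole ovules of Gossypium hirsutum cv. MCU5, the wild type (WT), and of its near-isogenic fuzzless-lintless (fl) mutant were compared at 0, 5, 10, 15 and 20 days post anthesis (dpa). The WT ovules carried their fibres. On the mutant ovules the study saw fewer fibre initials, visible at 0 dpa, which did not grow further. The fl mutant is a spontaneous mutant kept as a pure line, and both genotypes were grown in the field. Each genotype had 3 biological replicates at each stage, 30 arrays in all. In whole ovules, fewer cells of a type and less RNA per cell cannot be told apart.

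The deposited values are on the log2 scale, and within a stage the median of a probe set over its 6 arrays is always 0. They hold differences between arrays of 1 stage, and neither expression levels nor changes from stage to stage. Where the groups of a stage do not overlap, the zero lies midway between them. Differences are given as the mean of the arrays labelled fl mutant minus the mean of the WT arrays, with the standard error (SE) from limma, and a probe set was called where the adjusted p was at most 0.01 and the fold at least 3 (1.58 on the log2 scale). The direction at 5 and 20 dpa follows the sample labels. It is opposite there to the direction in the study's own lists, and the groups at these stages are therefore named as the arrays labelled fl mutant and the arrays labelled WT.

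Transcripts known from fibre cells can be set beside those labels. They are of kinds that the study reports as differing between the genotypes, so they are no evidence separate from its lists. At 10 dpa 5 of the 6 fibre markers were called lower in the fl mutant (6.55% of all probe sets, median difference -5.53). At 15 dpa all 6 were (1.91% of all, median -4.63, from -7.04 to -2.89). At 20 dpa all 6 were called higher in the arrays labelled fl mutant (2.47% of all probe sets, median 3.52, from 2.16 to 4.67). This goes against the label of a fibreless ovule and repeats the mismatch with the study's lists. At 0 and 5 dpa none of the 6 was called, with medians of -0.90 and 0.43. The arrays labelled fl mutant nevertheless all lay above those labelled WT for 5 of the 6 at 5 dpa (18.9% of all probe sets), and all lay below for 4 of the 6 at 0 dpa (22.0%). Of the 5 green tissue markers, 1 was called higher at 10 dpa (4.91% of all probe sets), 2 lower at 15 dpa (1.91%) and 3 higher at 20 dpa (2.47%). These markers did not share a direction at 10 dpa. The fl arrays all lay above the WT arrays for 3 (36.0% of all probe sets) and below for 2 (28.3%). The 2 LHCB6 probe sets differed by 2.22, the call, and by -1.00. The transcript of the seed storage protein beta-globulin differed by 9.57 at 20 dpa and by -0.22 to 0.09 at the other stages. The part of these tissue differences in the results below was not tested, and no marker can be called absent because the values hold no levels.

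The only sequences in the sources used here that belong to these transcripts are the primers with which the study measured HSP18.2 and HSFA2 by quantitative RT-PCR. They are shown because they identify the transcripts behind the 2 largest differences at 10 dpa, and each is 24 bases long with 50.0% G and C. The platform annotation ties the HSP18.2 probe set to 2 cotton loci, and does not list the HSFA2 probe set.
HSP18.2 forward primer: agctcatgtcttcaaagccgacct
HSP18.2 reverse primer: ttctggcaacctgaacctcctcat
HSFA2 forward primer: cagaaacaggtgtagaagacgtgc
HSFA2 reverse primer: tgggcaagtgactcattcctcttc

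At 10 dpa, a stage of fibre elongation in the WT, the chaperone transcripts as a group were lower in the fl mutant. Of the 60 probe sets, 46 were called lower, where 6.55% of all probe sets were called lower, and 4 were called higher, where 4.91% of all were. At 20 dpa 30 were called higher in the arrays labelled fl mutant and 3 lower, beside 2.47% and 1.95% of all probe sets. At the other stages few were called: 1 higher and 3 lower at 0 dpa (0.154% and 1.39% of all), 4 higher and 3 lower at 5 dpa (1.84% and 0.179%), and 4 higher and 1 lower at 15 dpa (1.52% and 1.91%). Because the study chose the probe sets on these contrasts, these counts and their distribution over stages and classes are description only. The shares of all probe sets given here also stand beside the counts by class below. The median difference over the 60 was 0.12 at 0 dpa, -0.14 at 5 dpa, -2.69 at 10 dpa, 0.28 at 15 dpa and 1.51 at 20 dpa, beside medians of 0.09, -0.07, 0.04, -0.01 and 0.01 over all probe sets. Separation of the 3 arrays labelled fl mutant from the 3 WT arrays, at any size of difference, was common over the whole chip. At 10 dpa all 3 fl arrays lay below the WT arrays for 50 of the 60 (28.3% of all probe sets) and above for 7 (36.0%). The corresponding counts were 13 below (26.8%) and 36 above (28.0%) at 15 dpa, and 12 below (30.4%) and 38 above (27.9%) at 20 dpa. They were 27 below (30.3%) and 12 above (18.9%) at 5 dpa, and 15 below (22.0%) and 23 above (35.0%) at 0 dpa. Of the 60 probe sets, 32 were called at 1 stage only, 19 at 2, 7 at 3 and 2 at 4. Over all probe sets 16.4% were called at 1 stage or more, a share that the 60 exceed by the way they were chosen.

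**Figure D1:**
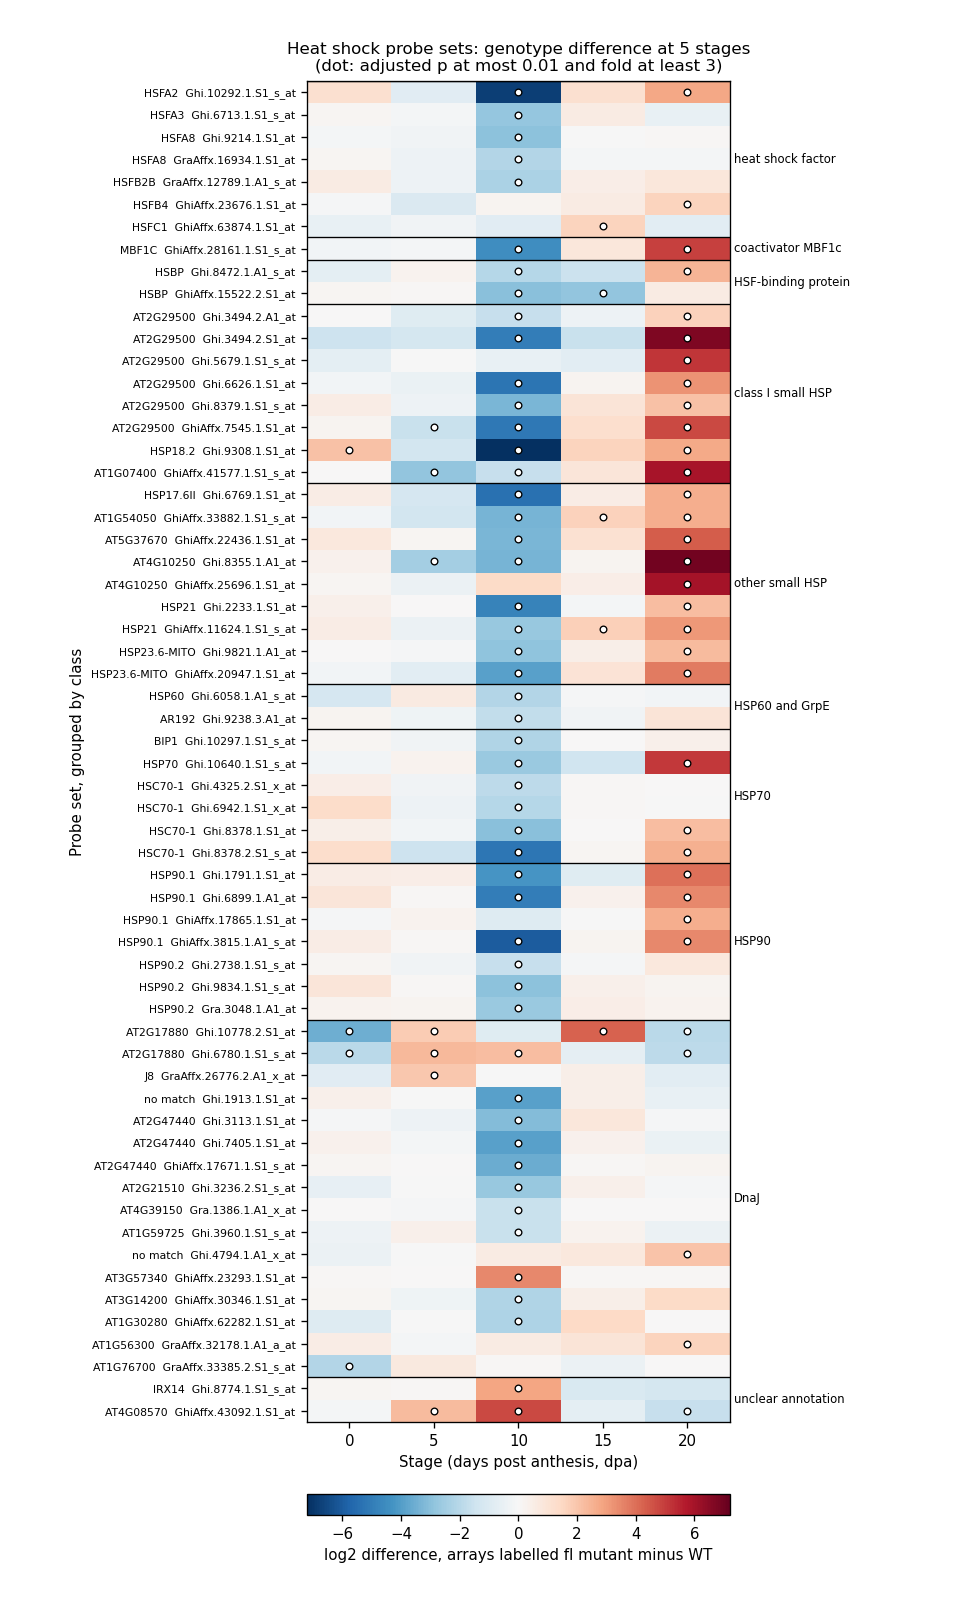
Log2 difference (arrays labelled fl mutant minus WT, colour scale) of the 60 probe sets (rows, grouped by class) at 5 stages (columns, dpa), with a white dot where a probe set was called. The 10 dpa column is blue for 46 called probe sets, and at 20 dpa the 17 small HSP rows are all red while most DnaJ rows are pale.

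Just inside the fold threshold stood a class I small HSP matching AT2G29500 at 5 dpa (-1.59) and, at 10 dpa, the DnaJ proteins AT4G39150 (-1.59) and AT1G59725 (-1.60). Just outside it, all at 15 dpa, stood another AT2G29500 probe set (-1.58), HSP18.2 (1.57, a fold of 2.98) and an HSF-binding protein (-1.56). The identity of this last probe set is uncertain, as given below. A probe set near this limit can be counted or not on a difference smaller than its SE. At 15 dpa the count called lower was 2 without WT replicate 2 and 3 without fl replicate 3.

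Among the regulators, HSFA2 showed the largest difference. Its values at 10 dpa were 3.33, 3.37 and 3.30 in the WT and -3.30, -3.45 and -3.51 in the fl mutant, a mean of 3.34 ± 0.035 (SD, n = 3) against -3.42 ± 0.11. The groups lay far apart, a 108.3-fold lower value in the mutant (-6.76, SE 0.09). At 20 dpa HSFA2 was 1.41, 1.40 and 1.27 in the arrays labelled fl mutant against -1.27, -1.50 and -1.42 in those labelled WT, a difference of 2.76 (SE 0.08). At 0 and 15 dpa HSFA2 differed by the same amount, 1.13 (SE 0.07 and 0.06), with no overlap between groups and below the 3-fold threshold. At 5 dpa the difference was -0.83 (SE 0.09), again with no overlap.

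HSFA3, which in Arabidopsis acts downstream of the drought factor DREB2A, was 1.47, 1.52 and 1.32 in the WT and -1.32, -1.37 and -1.36 in the fl mutant at 10 dpa. This is a difference of -2.79 (SE 0.09), or 6.93-fold. Its groups overlapped at 0 and 5 dpa and differed by 0.57 (SE 0.08) at 15 dpa and by -0.54 (SE 0.09) at 20 dpa. HSFA3 therefore stayed below the threshold at 20 dpa, where HSFA2 was called higher.

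HSFA8 was read by 2 probe sets, designed from G. hirsutum and from G. raimondii sequence. The former was 1.49, 1.46 and 1.46 in the WT and -1.60, -1.47 and -1.46 in the fl mutant at 10 dpa (-2.98, SE 0.08). The latter was 0.95, 0.90 and 1.40 in the WT and -0.97, -1.13 and -0.90 in the mutant (-2.08, SE 0.14). Both were called at 10 dpa only, and their groups overlapped at 0, 15 and 20 dpa.

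The class B factors, which lack the activation motif of class A factors, differed from each other. HSFB2B, a repressor in Arabidopsis, was 1.09, 1.02 and 1.13 in the WT and -1.02, -1.24 and -1.31 in the fl mutant at 10 dpa (-2.27, SE 0.10). By 20 dpa HSFB2B stood at -0.31, -0.35 and -0.72 in the arrays labelled WT and 0.31, 0.34 and 0.35 in those labelled fl mutant (0.79, SE 0.11), below the threshold. HSFB4, known from stem cell divisions in the Arabidopsis root, was -0.12, 0.14 and -0.46 in the WT and 0.21, 0.08 and -0.08 in the mutant at 10 dpa, so its groups overlapped there.

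HSFB4 was called at 20 dpa alone, at -0.78, -0.75 and -0.83 in the arrays labelled WT and 0.90, 0.85 and 0.75 in those labelled fl mutant (1.62, SE 0.07). HSFC1 was the only factor called at 15 dpa, at -0.83, -0.87 and -0.72 in the WT and 0.72, 0.89 and 0.82 in the fl mutant (1.62, SE 0.07). By the sample labels, its groups were also separate, in the opposite direction, at the other 4 stages. The differences were -0.54 at 0 dpa, -0.23 at 5 dpa, -0.80 at 10 dpa and -0.78 at 20 dpa. These 2 calls rest on a fold of 3.07 each. Without WT replicate 2 or fl replicate 2 the HSFC1 difference was 1.58 or 1.57, and without fl replicate 1 that of HSFB4 was 1.58, all just under the threshold.

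MBF1c, a transcriptional coactivator needed for heat tolerance in Arabidopsis, was called at 10 and 20 dpa. At 10 dpa it was 2.239, 2.102 and 2.252 in the WT and -2.484, -2.102 and -2.196 in the fl mutant (-4.46, SE 0.11, a fold of 22.0). At 20 dpa the coactivator was -2.31, -2.51 and -2.97 in the arrays labelled WT and 2.33, 2.34 and 2.31 in those labelled fl mutant (4.92, SE 0.15, a fold of 30.4). Its groups overlapped at 0 and 5 dpa.

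HSF-binding proteins bind activated heat shock factors and damp their activity. The probe set with the larger difference at 10 dpa was 1.47, 1.31 and 1.39 in the WT and -1.62, -1.89 and -1.31 in the fl mutant there (-3.00, SE 0.14). Its values at 15 dpa were 1.32, 1.31 and 1.46 against -1.31, -1.61 and -1.51 (-2.84, SE 0.09), the only probe set of the 60 called lower at that stage. At 20 dpa the difference was 0.58 (SE 0.07).

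The other probe set, whose UniGene description is that of a pyruvate dehydrogenase subunit and whose identity is therefore uncertain, was 1.10, 1.09 and 0.95 in the WT and -1.12, -0.95 and -0.96 in the fl mutant at 10 dpa (-2.06, SE 0.09). Its difference at 15 dpa was -1.56 (SE 0.05), and at 20 dpa its values were -1.33, -1.36 and -1.14 in the arrays labelled WT and 1.15, 1.14 and 1.15 in those labelled fl mutant (2.42, SE 0.08). Both probe sets thus had separate, lower values in the mutant at 10 and at 15 dpa, the stages at which the fibre markers were lower too.

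**Figure D2:**
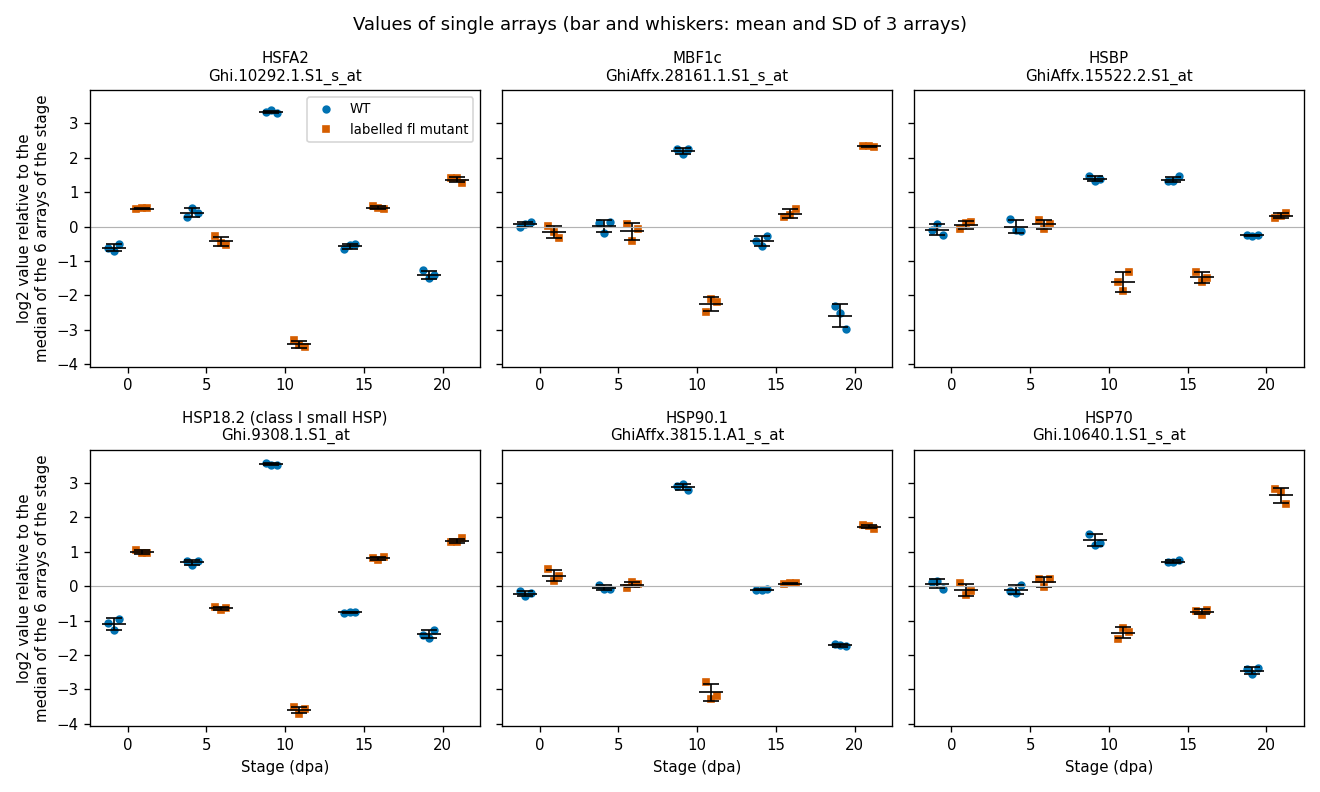
Deposited log2 values of single arrays (points) against stage (dpa) for HSFA2, MBF1c, an HSF-binding protein, HSP18.2, HSP90.1 and HSP70, with the mean and SD of 3 arrays per group. At 10 dpa the WT arrays lie above the fl mutant arrays in all 6 panels, and at 20 dpa the arrays labelled fl mutant lie above those labelled WT in all 6.

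The small HSPs gave the widest differences of any class. The 8 class I probe sets, of the cytosolic type, had a median difference of -4.15 at 10 dpa (7 of 8 called lower) and 3.98 at 20 dpa (8 of 8 called higher). HSP18.2 was 3.59, 3.52 and 3.53 in the WT and -3.52, -3.71 and -3.58 in the fl mutant at 10 dpa. This difference, -7.16 (SE 0.08), was the largest of the 60 probe sets at any stage, a fold of 142.6.

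HSP18.2 was also the only heat shock probe set called higher at 0 dpa. It was -1.07, -1.28 and -0.95 in the WT and 1.05, 0.95 and 0.95 in the fl mutant at that stage (2.08, SE 0.09). At 5 dpa it was 0.73, 0.61 and 0.72 in the arrays labelled WT and -0.61, -0.69 and -0.64 in those labelled fl mutant (-1.34, SE 0.06). At 20 dpa HSP18.2 was -1.42, -1.51 and -1.28 against 1.29, 1.28 and 1.39 (2.72, SE 0.08). By the sample labels, the sign of its difference was positive at 0, 15 and 20 dpa and negative at 5 and 10 dpa. HSFA2 had the same sign as HSP18.2 at all 5 stages. With the labels of 5 and 20 dpa exchanged, the signs of both would reverse at these stages.

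The 6 probe sets that match the single Arabidopsis class I gene AT2G29500 did not move together at 10 dpa. Their differences were -5.24, -5.17, -5.00, -3.30, -1.69 and -0.54, the last of which was not called (SE 0.13). At 20 dpa all 6 were called higher, from 1.64 to 6.71. The probe set with the widest gap there was at -3.31, -3.46 and -3.35 in the arrays labelled WT and 3.31, 3.36 and 3.33 in those labelled fl mutant at 20 dpa (6.71, SE 0.07, a fold of 104.6). The probe set that was not called at 10 dpa differed by 5.16 at 20 dpa.

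That probe set with the widest gap and another of the 6 came from 1 UniGene cluster and are tied to 1 cotton locus, LOC107946138. Their differences were -5.00 against -1.69 at 10 dpa, and 6.71 against 1.64 at 20 dpa. The one with smaller differences was 1.10, 0.56 and 1.24 in the WT at 10 dpa, a wider spread (SD 0.36) than in its partner, at 2.46, 2.38 and 2.42. The identifiers of the pair differ only in S1 against A1, and whether both read the same strand was not checked. A difference on this array is thus that of a probe set and need not be that of a gene. The single-array values of the probe set with smaller differences and of 4 others (of HSP22.0, AT5G37670, HSP90.1 and AT2G17880) are given because their values stood out.

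The class I protein AT1G07400 had its strongest difference away from 10 dpa. It differed by -2.85 (SE 0.13) at 5 dpa, by -1.65 (SE 0.10) at 10 dpa and by 5.96 (SE 0.07) at 20 dpa. At 5 dpa, 7 of the 8 class I probe sets had separate groups with lower values in the arrays labelled fl mutant, where 30.3% of all probe sets did.

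The 9 other small HSPs cover class II and class III proteins and those of the organelles. Their median difference was -3.32 at 10 dpa (8 of 9 called lower) and 3.13 at 20 dpa (9 of 9 called higher). The cytosolic class II HSP17.6II had the largest difference at 10 dpa, at 2.70, 2.58 and 2.60 in the WT and -2.58, -2.98 and -2.72 in the fl mutant (-5.38, SE 0.11). In 20 dpa ovules it was -1.30, -1.32 and -1.26 in the arrays labelled WT and 1.27, 1.35 and 1.26 in those labelled fl mutant (2.59, SE 0.07).

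The endoplasmic reticulum protein HSP22.0 (AT4G10250) was read by 2 probe sets that disagreed at 10 dpa. The first was 1.64, 1.62 and 1.65 in the WT and -1.68, -1.82 and -1.62 in the fl mutant (-3.34, SE 0.09). The second was -0.76, -0.57 and -0.87 in the WT and 0.71, 0.59 and 0.57 in the mutant (1.36, SE 0.10), the only small HSP higher in the mutant at 10 dpa. At 20 dpa both were called higher, by 6.97 and 5.97. The first was -3.86, -3.42 and -3.36 in the arrays labelled WT and 3.36, 3.45 and 3.47 in those labelled fl mutant (SE 0.13, a fold of 125.4), the largest difference of the 60 at that stage.

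The small HSPs of the other organelles were lower at 10 dpa and higher at 20 dpa. The chloroplast HSP21 differed by -4.80 and -2.72 at 10 dpa and by 2.20 and 3.13 at 20 dpa over its 2 probe sets. The mitochondrial HSP23.6 differed by -2.90 and -3.90 at 10 dpa and by 2.29 and 3.72 at 20 dpa, its 2 probe sets being of 1 UniGene cluster. AT5G37670, a small HSP of peroxisomes, differed by -3.30 and 4.34. Its SE at 10 dpa was 0.36, and fl replicate 2, at -2.93, lay far from the other fl arrays, at -1.32 and -1.55.

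At 15 dpa the small HSPs were mostly a little higher in the fl mutant, with 13 of 17 differences above 0 and 12 with separate groups (28.0% of all probe sets had separate, higher values). Only a probe set of HSP21 (1.71) and the class III protein AT1G54050 (1.68) were called. Over the same arrays the 6 fibre markers were all lower. The fibre markers and the small HSPs therefore had the same sign of median at 10 and at 20 dpa and opposite signs at 0, 5 and 15 dpa.

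HSP90 showed a division between its 2 isoform groups at 20 dpa. The 4 probe sets matching HSP90.1, the heat-inducible cytosolic form in Arabidopsis, differed by -5.98 to -0.91 at 10 dpa, where 3 were called lower. At 20 dpa they differed by 2.61 to 3.97, and all 4 were called higher. The 3 probe sets matching HSP90.2, a constitutive cytosolic form, were all called lower at 10 dpa (-1.64 to -2.97) and none was called at 20 dpa (0.18 to 0.75). At 10 dpa the HSP90.1 range enclosed that of HSP90.2. At 20 dpa the ranges of the 2 groups of probe sets did not overlap, a difference that was not tested because the contrast chose them.

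The HSP90.1 probe set with the widest gap at 10 dpa was 2.90, 2.97 and 2.79 in the WT and -2.79, -3.27 and -3.20 in the fl mutant (-5.98, SE 0.13, a fold of 63.0). At 20 dpa the same probe set was -1.67, -1.72 and -1.75 in the arrays labelled WT and 1.77, 1.75 and 1.67 in those labelled fl mutant (3.45, SE 0.07). Another had the largest HSP90 difference at 20 dpa, at -1.92, -1.98 and -2.12 against 2.00, 1.98 and 1.92 (3.97, SE 0.08), and differed by -4.24 at 10 dpa. Each set of 3 arrays was tight beside the difference.

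A different HSP90.1 probe set stood apart at 10 dpa. It was 0.11, 1.03 and 1.14 in the WT and -0.19, -0.16 and -0.11 in the fl mutant (-0.91, SE 0.24), with WT replicate 1 next to the mutant arrays. At 20 dpa it was called higher (2.61). The remaining HSP90.1 probe set, which shares a UniGene cluster with the one described first, differed by -4.95 at 10 dpa and 3.47 at 20 dpa.

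All 6 HSP70 probe sets were called lower at 10 dpa, with a median difference of -2.43, and 3 were called higher at 20 dpa. The stress-type HSP70 was 1.53, 1.20 and 1.26 in the WT and -1.53, -1.20 and -1.33 in the fl mutant at 10 dpa (-2.69, SE 0.12). At 20 dpa HSP70 was -2.41, -2.56 and -2.38 in the arrays labelled WT and 2.81, 2.73 and 2.38 in those labelled fl mutant (5.09, SE 0.12, a fold of 34.2). It was the only HSP70 lower with separate groups at 15 dpa (-1.46, SE 0.05).

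HSC70-1, a cytosolic HSP70 made constitutively in Arabidopsis, was the match of 4 probe sets with unlike differences. The one with the widest gap was 2.50, 2.44 and 2.46 in the WT and -2.44, -2.88 and -2.81 in the fl mutant at 10 dpa (-5.18, SE 0.12). Its 20 dpa values were -1.24, -1.41 and -1.22 in the arrays labelled WT and 1.31, 1.28 and 1.22 in those labelled fl mutant (2.56, SE 0.08). A probe set of the same design cluster had a similar course, -3.00 at 10 dpa and 2.21 at 20 dpa.

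The remaining 2 HSC70-1 probe sets differed by -1.86 and -2.06 at 10 dpa and by 0.06 and -0.01 at 20 dpa. Their identifiers, like that of the HSC70-1 probe set with the widest gap, mark probes that can read several related transcripts. All 4 HSC70-1 probe sets had separate groups with higher values in the fl mutant at 0 dpa, from 0.41 to 1.32 and below the threshold, where 35.0% of all probe sets did. BIP1, the HSP70 of the endoplasmic reticulum, differed by -2.17 at 10 dpa and by 0.35 at 20 dpa. The 2 other probe sets tied to its locus, LOC107950133, are no members and differed by -0.57 and -0.32 at 10 dpa.

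In the mitochondrial folding machinery, HSP60 was 0.96, 0.98 and 1.06 in the WT and -1.06, -1.22 and -0.96 in the fl mutant at 10 dpa (-2.08, SE 0.09). At 20 dpa HSP60 was 0.14, 0.07 and 0.08 in the arrays labelled WT and -0.15, -0.13 and -0.07 in those labelled fl mutant (-0.22, SE 0.06). AR192, a GrpE-type nucleotide exchange factor for HSP70, was 1.01, 0.80 and 0.93 in the WT and -0.80, -0.91 and -0.87 in the mutant at 10 dpa (-1.77, SE 0.09). Its difference at 20 dpa was 0.91 (SE 0.08). Neither was called at any stage other than 10 dpa.

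**Figure D3:**
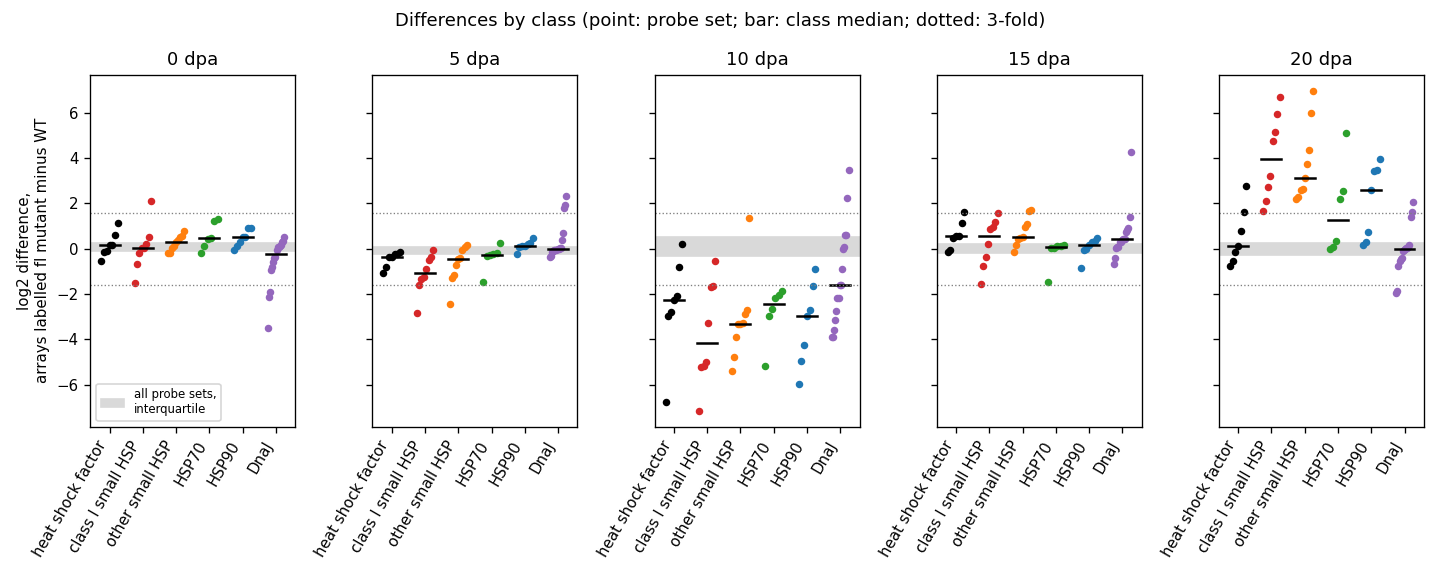
Log2 difference (arrays labelled fl mutant minus WT) of each probe set (points) in 6 classes, 1 panel per stage, with the class median (bar), the interquartile range of all probe sets (grey band) and the 3-fold limits (dotted). The class I small HSP median lies at -4.15 at 10 dpa and 3.98 at 20 dpa, while the DnaJ median lies at -1.59 and -0.03.

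The DnaJ proteins deliver substrates to HSP70 and form the most diverse class. Of the 16 probe sets, 9 were called lower and 2 higher at 10 dpa (median -1.59, from -3.91 to 3.48), and 2 were called higher and 2 lower at 20 dpa (median -0.03, from -1.96 to 2.07). No DnaJ probe set was called lower at 10 dpa and higher at 20 dpa, as 24 of the 60 were (0.678% of all probe sets). Those 24 were 15 of the 17 small HSPs, 3 each of HSP70 and HSP90, HSFA2, MBF1c and the HSF-binding protein probe set of uncertain identity. The count follows the labels: with those of 20 dpa exchanged, the same 24 would be lower at both stages and 0 of the 60 lower at 10 dpa and higher at 20 dpa. Another 22 were called lower at 10 dpa and not at 20 dpa, and 6 higher at 20 dpa and not at 10 dpa.

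**Figure D4:**
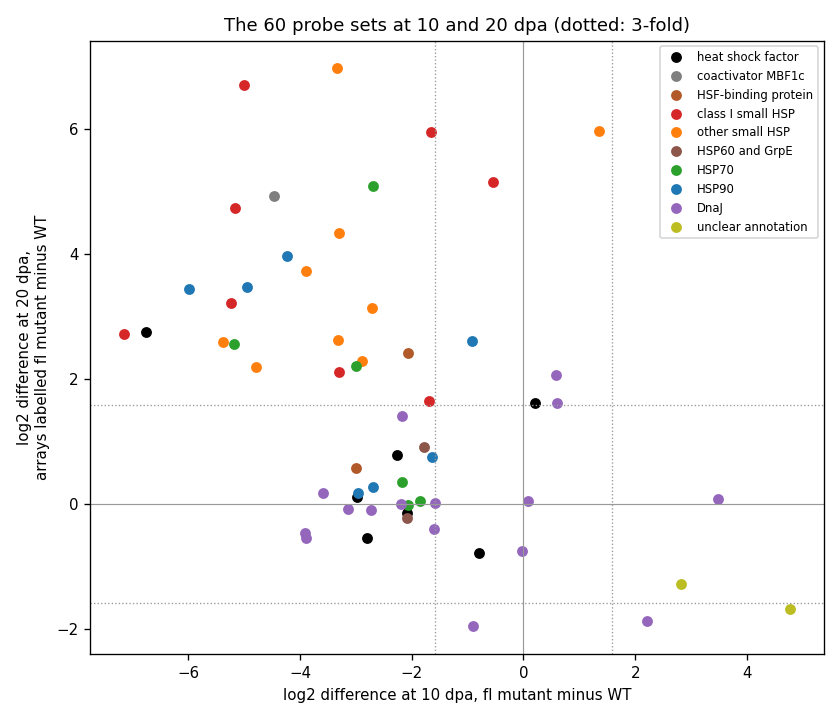
Log2 difference at 20 dpa (arrays labelled fl mutant minus WT, vertical) against that at 10 dpa (fl mutant minus WT, horizontal) for the 60 probe sets, coloured by class, with 3-fold limits dotted. Small HSPs fill the upper left, where 24 probe sets were called at both stages. Most DnaJ probe sets lie near the horizontal axis, with 2 called higher and 2 lower at 20 dpa.

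The largest DnaJ falls at 10 dpa came from a group that matches AT2G47440, a J-domain protein with tetratricopeptide repeats. The widest gap was 2.06, 1.86 and 1.86 in the WT and -1.86, -2.096 and -1.97 in the fl mutant (-3.91, SE 0.10). The other AT2G47440 probe sets differed by -3.58 and -3.14. A DnaJ probe set with no Arabidopsis match, in 1 UniGene cluster with the probe sets at -3.91 and -3.58, differed by -3.89. At 20 dpa these 4 ranged from -0.54 to 0.18, so they were called at 10 dpa only.

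AT3G57340 ran the other way at 10 dpa, where it differed by 3.48 (SE 0.15, a fold of 11.2). Its difference was within 0.08 of zero at each other stage. The DnaJ probe set with the largest difference at 20 dpa, with no Arabidopsis match, was -1.01, -1.28 and -0.89 in the arrays labelled WT and 0.98, 1.13 and 0.89 in those labelled fl mutant (2.07, SE 0.11). At 10 dpa it was -0.01, -0.09 and -0.52 in the WT and 0.01, 0.72 and 0.40 in the fl mutant (0.58, SE 0.19), where the closest arrays of the groups nearly met.

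The small J proteins matching AT2G17880 and J8, the latter a chloroplast protein in Arabidopsis, had a course of their own. Of the 2 probe sets matching AT2G17880, the first was 1.74, 1.79 and 1.66 in the WT and -1.75, -1.66 and -1.92 in the fl mutant at 0 dpa (-3.51, SE 0.08). At 15 dpa this probe set was -2.30, -2.38 and -1.95 in the WT and 2.12, 1.95 and 2.11 in the mutant (4.27, SE 0.12, a fold of 19.4). It was called at 4 stages, with differences of 1.82 at 5 dpa and -1.96 at 20 dpa.

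The second differed by -1.93 at 0 dpa, 2.32 at 5 dpa, 2.22 at 10 dpa, -0.67 at 15 dpa and -1.87 at 20 dpa. At 10 and 15 dpa its sign was opposite to that of the first, and its UniGene description is that of a chlorophyll a/b-binding protein. J8 was called only at 5 dpa (1.93). The third DnaJ call at 0 dpa was AT1G76700 (-2.12). All 3 probe sets called lower at 0 dpa were therefore DnaJ proteins, and all 3 DnaJ probe sets called at 5 dpa were of this small J group.

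The 2 probe sets of unclear annotation were the remaining calls above the threshold at 10 dpa. AT4G08570, the heavy metal domain protein, differed by 4.78 (SE 0.08) at 10 dpa, 2.28 at 5 dpa and -1.67 at 20 dpa. The probe set that matches the xylan synthesis gene IRX14 but shares a UniGene cluster with the AT2G47440 group differed by 2.81 (SE 0.14) at 10 dpa. Of the 4 probe sets called higher at 10 dpa, AT3G57340 was thus the only one whose UniGene description and Arabidopsis match both named a heat shock chaperone.

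The spread between replicates entered the test by which the study chose the transcripts, so the SDs of these probe sets too are given as a description. The median SD over the 60 probe sets was 0.14 in the fl mutant and 0.085 in the WT at 10 dpa, beside 0.12 in both groups over all probe sets. At that stage it was 0.18 against 0.081 for the class I small HSPs and 0.16 against 0.079 for the other small HSPs. Fl replicate 2 was the array with the lowest class I values at 10 dpa, with a median deviation of -0.15 from its group mean. Over all 30 arrays the median deviation of the 60 probe sets stayed between -0.05 and 0.05, and that of all probe sets between -0.02 and 0.02. The highest SD of the 60 at 10 dpa was that of AT5G37670 in the fl mutant (0.87).

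The array also carried 18 probe sets that share a cluster number of the chip's design with 13 of the 60 and were not listed by the study. None was called at any stage, and their differences ran from -1.07 to 1.06. Their medians were 0.13, -0.14, -0.36, -0.03 and 0.06 at the 5 stages. They had stayed off the list because they did not pass its threshold, so nothing is read from their small differences. The neighbour of MBF1c differed by -0.72 at 10 dpa and 0.42 at 20 dpa, where MBF1c itself differed by -4.46 and 4.92. Its identifier has A1 where that of MBF1c has S1, and whether both read the same strand was not checked.

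Co-chaperones and other partners were read from a list also taken from the study's tables of differing transcripts. Of 11 probe sets for co-chaperones and protein quality control, 6 were called lower and 3 higher at 10 dpa (6.55% and 4.91% of all probe sets). At 20 dpa 2 were called higher (2.47%). Those lower at 10 dpa included both UBQ10 probe sets and SUMO2, and those higher included both CLPP3 probe sets. Hop3, which links HSP70 to HSP90, differed by -3.16 at 10 dpa and 1.29 at 20 dpa, while Hop2 differed by 1.84 and -1.09. Calnexin (CNX1), a lectin chaperone of the endoplasmic reticulum, was called at 3 stages (-4.01 at 10 dpa, -1.70 at 15 dpa, 2.19 at 20 dpa). The FK506-binding protein PAS1 differed by -0.40 at 10 dpa and 4.96 at 20 dpa in 1 of its 2 probe sets, and by -1.68 and 1.38 in the other. The chaperonin subunit AT1G24510 was the 1 called at 0 dpa (1.82).

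Of the 7 heat response partners, 6 were called lower at 10 dpa (median -4.35, beside 6.55% of all probe sets called). At 20 dpa 1 was called higher (2.47% of all). The transcription factor DREB2C, which activates HSFA3 in Arabidopsis, differed by -4.35 at 10 dpa and by 0.97 at 20 dpa. The galactinol synthases, targets of heat shock factors in Arabidopsis that make the precursor of raffinose sugars, differed by -2.63 to -5.57 at 10 dpa over 5 of 6 probe sets. The remaining probe set, of GolS1, differed by -0.11 at 10 dpa and 3.38 at 20 dpa. Apart from that 1, the partners had differences between -0.51 and 0.97 at 20 dpa, where the 17 small HSPs differed by 1.64 to 6.97.

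**Figure D5:**
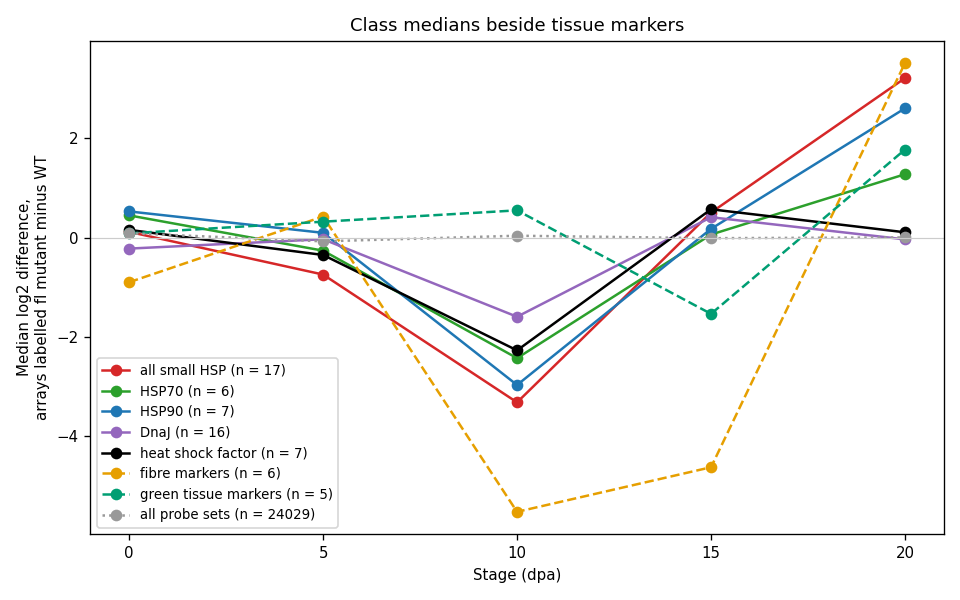
Median log2 difference (arrays labelled fl mutant minus WT) against stage (dpa) for 5 heat shock groups, the heat shock factors among them (solid lines), fibre and green tissue markers (dashed) and all probe sets (dotted). The fibre markers follow the small HSPs at 10 dpa (-5.53 and -3.32) and at 20 dpa (3.52 and 3.22) but lie at -4.63 at 15 dpa, where the small HSPs lie at 0.51.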

How the data were processed

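Total RNA of whole ovules was hybridised to 30 Affymetrix cotton arrays, 3 per genotype and stage. The deposited values are log2 signals that the authors obtained by RMA in GeneSpring GX 11.5. Each of the 24132 probe sets had been centred stage by stage, and its median over the 6 arrays was 0 at all 5 stages when checked. After 103 control probe sets were left out, limma 3.58.1 in R 4.3.3 was fitted to the 6 arrays of each stage, with Benjamini-Hochberg adjustment over 24029 probe sets. A call required a fold of at least 3 and an adjusted p no higher than 0.01. The members and lists were chosen with earlier results of these data known. Single-array values are given for all factors, MBF1c, the HSF-binding proteins, the heat shock transcripts of a summary table in the study, and the largest difference of each class at 10 and at 20 dpa. Medians are given for classes of at least 6 probe sets. The authors' own fold changes were not used. No levels are held, so no filter on low signals was tried. The alternatives were the methods' t-test, 1 fit of all arrays, a replicate block, centring on the median or the 75th percentile, other thresholds, exchanged labels, omission of probe sets that may read several transcripts and omission of each array. Replicates are biological per the labels. The number of arrays limits the precision. The platform annotation paired 5 of the 60 probe sets with cotton loci, 3 of them with 1 locus, and a search of it for chaperone keywords found 0 further probe sets. The fits were tested on simulated data.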

Additional observations from a re-analysis of the deposited data

Results flagged for a closer look

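Array medians over probe sets were compared in classes of at least 6 probe sets. In 5 of these classes, the heat shock factors among them, those of the fl mutant all lay below those of the WT at 10 dpa. In the same classes those of the arrays labelled fl mutant all lay above at 20 dpa. The difference between the stages was not tested, and the study chose the probe sets on both contrasts. The class I small HSPs had a difference in array medians of -4.07 at 10 dpa and 3.98 at 20 dpa, and the other small HSPs of -3.28 and 3.15. HSP90 gave -3.02 and 2.61, and HSP70 gave -2.45 and 1.28. The heat shock factors gave -2.33 at 10 dpa and 0.16 at 20 dpa, where only HSFA2 and HSFB4 were called. At 20 dpa their median difference over probe sets was 0.11, and it was -0.017 without the probe sets that may read several transcripts. At 20 dpa all 6 fibre markers were higher in the arrays labelled fl mutant, and with the labels of that stage exchanged both stages would have the same direction. Groups of 3 arrays were too small for a check of single outlying arrays.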

How the results depend on the processing

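The methods' t-test, 1 fit of all 30 arrays, centring of the arrays and an adjusted p of at most 0.05 changed no count of called heat shock probe sets by over 1.5 times. The values of 22 probe sets given by array were compared, stage by stage, with the other fits and centrings and with each array left out. Of these comparisons 1202 kept the side of the threshold, 5 passed it, 3 no longer did and no call changed direction. Exchanged labels were not among these settings. Small differences could change sign. That of the HSFA8 probe set from G. raimondii at 0 dpa ran from -0.026 to 0.29 with each array left out. With a fold of at least 2, the 0 dpa counts were 4 higher and 5 lower, the 5 dpa count was 9 lower, and the 15 dpa counts were 9 higher and 5 lower. With WT and fl labels exchanged, the 20 dpa counts were 3 higher and 30 lower, and the 5 dpa counts 3 higher and 4 lower. Centring on the 75th percentile moved the HSP70 median to 0.36 at 0 dpa and -0.20 at 5 dpa.

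Without the 29 probe sets that may read several transcripts, the heat shock factor median was -0.12 at 0 dpa, -1.44 at 10 dpa, 0.26 at 15 dpa and -0.017 at 20 dpa. That of HSP90 was 0.41, 0.21, -3.46, 0.14 and 3.04 from 0 to 20 dpa. That of class I small HSPs was -1.26 at 5 dpa, -5.17 at 10 dpa, 0.21 at 15 dpa and 3.22 at 20 dpa. For HSP70 only an HSC70-1 probe set was left, so its own values stand here: -0.19 (5 dpa), -2.99 (10 dpa) and 2.21 (20 dpa). The other small HSPs gave 3.72 at 20 dpa, and DnaJ 0.072 (0 dpa) and -2.20 (10 dpa). The medians of this paragraph rest on fewer probe sets, in several classes on fewer than the 6 otherwise required.

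With each array left out in turn, the heat shock factor median ran from -0.026 to 0.21 at 0 dpa, from -2.36 to -2.21 at 10 dpa and from 0.47 to 0.64 at 15 dpa, and the class I small HSP median from 0.48 to 0.60 at 15 dpa. The count lower at 15 dpa ran from 1 to 3, with 2 without WT replicate 2 and 3 without fl replicate 3. There an AT2G29500 probe set (-1.60 and -1.59) and the HSF-binding protein probe set of uncertain identity (-1.59 without fl replicate 3) passed the fold threshold. HSP18.2 passed it at 15 dpa without fl replicate 2 (1.60).

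The replicate numbers did not pair the arrays: the correlation of deviations between arrays of 1 number ran from -0.16 to 0.16 and was over 0.1 in 2 of 15 pairs. With the replicate number as a block the counts stayed at 1, 4, 4, 4 and 30 called higher and 3, 3, 46, 1 and 3 called lower from 0 to 20 dpa, and no call of a named probe set changed. The values hold no signal levels, so a filter on dim probe sets was not run.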
